A study of Xenopus laevis with 4 samples.

Results

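Genes for chromatin remodelling complexes, histone-modifying enzymes, readers of histone marks and DNA methylation, and high-mobility-group chromatin proteins were followed across 4 explants of the stage 10 Xenopus laevis gastrula. Members were matched by a rule on gene symbols, set with earlier results of these data known. By it, 96 of the 15491 probe sets carried 1 symbol of the smarc, chd, hdac, sirt, kdm, kmt, kat, dnmt, ezh, eed, suz12, cbx, hmgb, hmgn, hmga, arid, brd, ing, rbbp, mbd, setd or prmt families, and stood for 73 genes. X. laevis is an allotetraploid frog, so many genes have a copy on the long (.L) and on the short (.S) chromosome set: 54 of the probe sets named an L copy, 41 an S copy and 1, for suz12, neither. A further 5 probe sets that listed several symbols with a match were left out.

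Explants came from the animal cap (prospective ectoderm), the marginal zone's dorsal and ventral sectors (parts of the belt around the equator from which mesoderm arises) and the vegetal explant (yolk-rich prospective endoderm), each dissected at stage 10, when gastrulation begins. The labels record no treatment or genotype for any of them. RNA of each explant was hybridised to 1 array, with no replicate and no statement of how many embryos or dissections it came from. The submitters' stated purpose was to use such regional comparisons to predict where genes are expressed.

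Chromatin regulators act on the packaging of DNA around histones. Remodellers such as the SWI/SNF, ISWI and CHD ATPases move or evict nucleosomes, acetyltransferases and deacetylases, methyltransferases and demethylases write and erase marks on histone tails, and bromodomain, chromodomain and PHD-finger proteins read them. Early frog embryos inherit much of this machinery as maternal RNA from the egg, and regional transcription starts at the midblastula transition, before the stage studied here.

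With 1 array per explant no statistical test was possible, and each difference below sets 1 array against another, with nothing to show how much a repeat would vary. Signals are in the scaled intensity units deposited by the authors. Probe sets were compared only where at least 1 of the explants concerned was at or above 147, the median of all values. Signals below the 20th percentile (24.7) were raised to it, and a 2-fold difference was the rule of size. Over all genes with several probe sets, 2 probe sets of 1 gene disagreed in their log2 difference with an SD of 0.76 between cap and vegetal explant (675 genes) and 0.42 between the marginal zones (631 genes). Regional marker genes had their highest signal in the labelled region for 25 of 26 probe sets that reached the filter, and the exception was ventx3.2.S, with 580 ventrally and 1959 vegetally. The organizer gene gsc.S was nearly as high in the vegetal explant (2594) as in the dorsal marginal zone (2662). The ratio of the 3′ to the 5′ probe sets of the Gapd control, a sign of RNA quality, was 5.85 on the vegetal array and 3.99 to 4.45 on the others, while that of the beta-actin control was 0.68 to 0.71 on all 4. The part of these in the results was not tested. In explants of mixed cells, fewer cells with an RNA and less of it per cell cannot be told apart.

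Chromatin genes were measured throughout the gastrula, and most of their 2-fold differences involved the vegetal explant, as did those of probe sets in general. Of the 96 probe sets, 78 (66 genes) reached the filter in at least 1 explant, none of them at the floor anywhere. In 24 of the 78, for 20 genes, some pair of explants differed 2-fold or more (30.8%, against 27.4% of all 8851 probe sets), a share near the background. In each of these 24 the vegetal explant was either the lowest (15) or the highest (9) of the 4, as it was for 88.8% of all probe sets past 2-fold. The lowest signal was the vegetal one in 62.5% of the 24, against 39.8% of all probe sets past 2-fold. Among the other 3 explants alone, 2 of 74 probe sets spanned 2-fold (2.7%, against 7.74% of all probe sets), and the median span was 1.20-fold, against 1.25-fold over all.

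**Figure D1:**
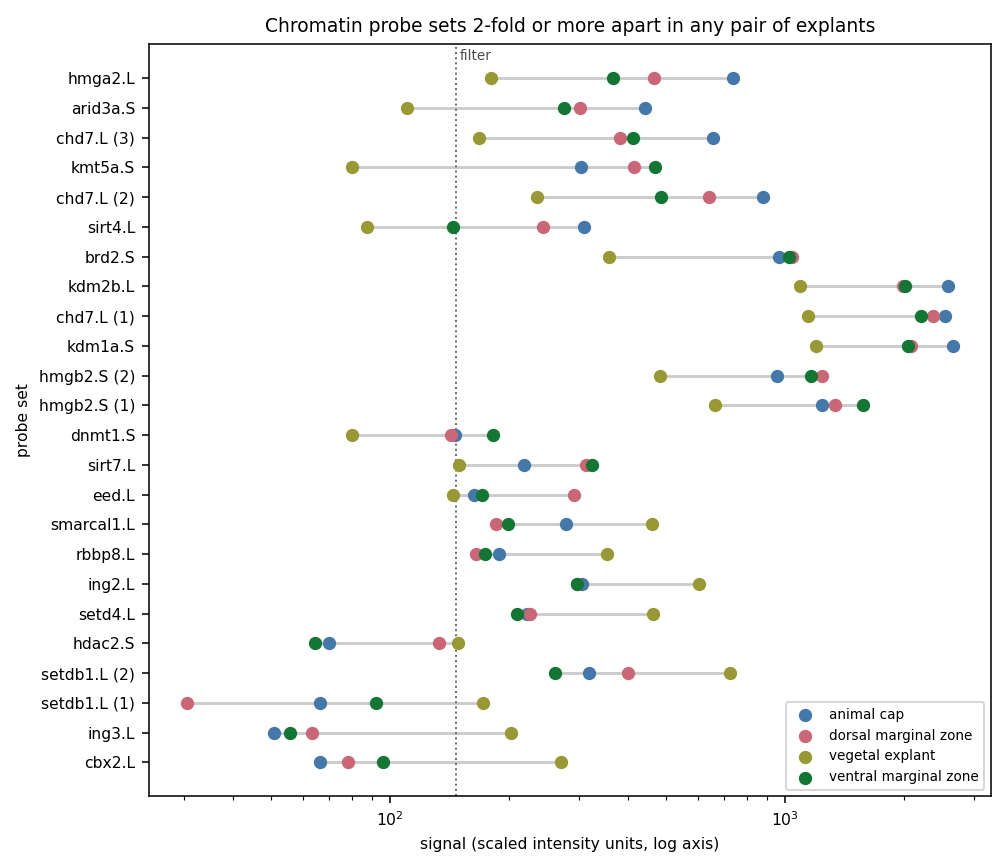
Signals (scaled intensity units, log axis) of the 24 chromatin probe sets that differed 2-fold or more in any pair of explants, 1 point per explant and array, ordered by cap minus vegetal difference. Numbers in brackets tell apart probe sets of the same gene, and the dotted line is the filter of 147. The vegetal point is the lowest in the upper 15 rows and the highest in the lower 9.

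Over all measured members, the vegetal explant was the lowest of the 4 in 47 of 78 probe sets (60.3%, against 37.2% of all probe sets) and the highest in 18 (23.1%, against 39.1%). Once each array had been centred on its median, the shares were 72.7% and 15.6%, against 47.6% and 28.8% of all, so the share itself moves with the scaling while the members stayed above the background for the lowest place and below it for the highest. The background shares of the other explants, from 17.2% to 26.0% for the highest place and from 17.3% to 25.5% for the lowest, were closer together. The order of members and background was the same with the arrays scaled to the hybridisation controls (71.8% lowest against 45.6%) and after quantile normalization (59.7% against 39.4%). Median centring and control scaling shift all probe sets of an array by the same factor, members and background alike. They could therefore hardly change this order and are no measure of its stability. A low vegetal signal was more frequent among bright probe sets in general. In the brightest tertile by mean signal 26 of 35 members were lowest vegetally (74.3%, against 47.5% of all in that tertile), in the middle tertile 11 of 21 (52.4% against 37.4%), and in the dimmest 10 of 22 (45.5% against 26.7%). No test of these differences was possible, since probe sets are not replicates.

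The animal cap and the vegetal explant, the ends of the animal-vegetal axis, were set against each other first. In order of their largest difference, hmga2.L, arid3a.S, chd7.L, kmt5a.S, sirt4.L, brd2.S, kdm2b.L and kdm1a.S, genes of 7 different families, were 2-fold or more higher in the cap. The Polycomb reader gene cbx2.L, ing3.L, setdb1.L, hdac2.S and setd4.L were 2-fold or more higher vegetally. Of these, cbx2.L, ing3.L, hdac2.S and the dimmer called setdb1.L probe set reached the filter in the vegetal explant only. Among the genes higher in the cap, arid3a.S, kmt5a.S and sirt4.L were below the filter vegetally. Of 76 probe sets compared, 10 (8 genes) were higher in the cap (13.2%, against 9.14% of all 8614) and 6 (5 genes) vegetally (7.89%, against 11.7% of all), and the share past 2-fold in either direction was 21.1%, against 20.9% of all. The median difference was 0.27 on the log2 scale towards the cap, against -0.01 over all probe sets, and 53 of the 76 lay on the cap side (69.7%, against 49.3%).

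The split between cap and vegetal calls depended on the scaling: 62.5% of the called members were on the cap side as deposited (10 and 6), 83.3% with each array centred on its median (15 and 3), and 75% with the arrays scaled to the hybridisation controls or after quantile normalization (12 and 4 in each). These scalings moved the median of all probe sets to 0.21, 0.10 and 0.03. The calls over all probe sets moved too. As deposited, 9.14% of all probe sets were higher in the cap and 11.7% vegetally, and with median centring 12.8% and 8.82%. With control scaling the shares were 10.6% and 10.4%, and after quantile normalization 10.5% and 10.3%. The distance of the members' median from that of all probe sets was 0.28 as deposited and 0.25 after quantile normalization. Median centring and scaling to the hybridisation controls shift each difference between signals above the floor by the same amount, towards the cap. This distance could therefore hardly move under them (0.28 and 0.27), and a probe set on the cap side could not leave it. By tertile of mean signal, the members' median was 0.37 against 0.10 over all probe sets in the brightest (35 members), 0.22 against 0.01 in the middle (19) and 0.07 against -0.28 in the dimmest (22). Past 2-fold in either direction were 8.57%, 26.3% and 36.4% of the members in these tertiles, against 11.3%, 18.6% and 32.8% of all.

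**Figure D2:**
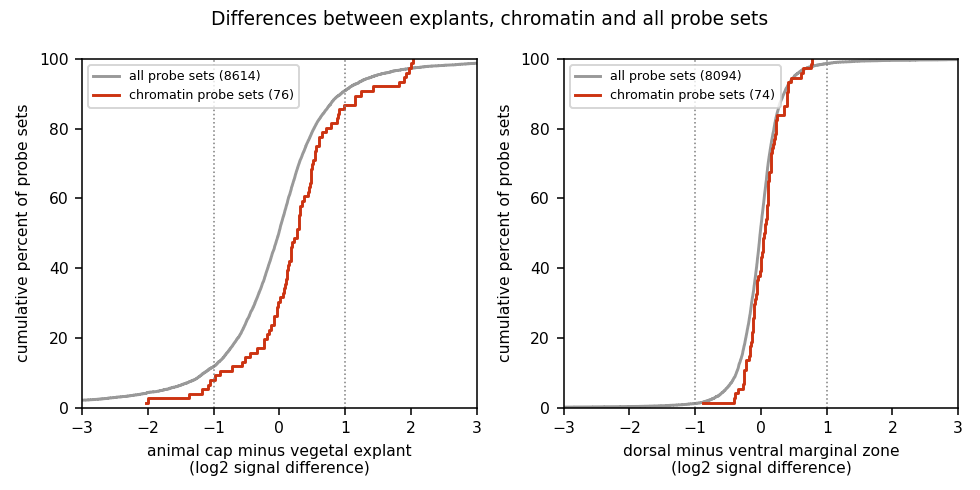
Cumulative percent of probe sets against the log2 signal difference, for the animal cap minus the vegetal explant and for the dorsal minus the ventral marginal zone, with chromatin probe sets in red and all probe sets in grey. The dotted lines mark 2-fold. In the first panel the red curve lies to the right of the grey one at the medians (0.27 and -0.01). It ends at 2.03, short of the largest cap differences of all probe sets. In the second panel both are narrow and no chromatin probe set passes 2-fold. The axes leave out the largest differences of all probe sets.

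Among the CHD remodellers, ATPases with paired chromodomains, all 4 probe sets that were compared lay on the cap side as deposited (49.3% of all probe sets did) and after quantile normalization. Their median difference was 1.53 as deposited. The gene chd7.L, known in humans as the gene mutated in CHARGE syndrome and needed in the neural crest, was read by 3 probe sets. The first had 2530.1 in the cap, 2371 dorsally, 2208 ventrally and 1138 vegetally. In the same order the second chd7.L probe set had 880, 641, 486 and 235, and the third 657, 381, 412 and 168. The vegetal signal was the lowest on each of the 3, and the cap exceeded it 2.22-fold, 3.74-fold and 3.92-fold. The NuRD ATPase gene chd4.L was 1365 in the cap, 1374 dorsally, 1412 ventrally and 898 vegetally, a 1.52-fold difference between cap and vegetal explant.

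The SWI/SNF (BAF) subunits matched by the symbol rule differed less than 2-fold across the embryo. None of 8 probe sets passed that size in any pair of explants (27.4% of all probe sets did), 3 of them (smarce1.L, smarcc1.L and smarcc2.L) spanned more than the 1.55-fold median of all probe sets, and the median cap minus vegetal difference of the 8 was 0.08. The 27.4% is not matched for level, and most of the 8 are bright. Between cap and vegetal explant, 11.3% of all probe sets in the brightest tertile passed 2-fold, against 32.8% in the dimmest. The core subunit gene smarcb1.S had 1774, 1667, 1745 and 1810.5 in the order cap, dorsal, ventral and vegetal, a span of 1.09-fold over the 4 arrays. The brighter of the smarcd1.L probe sets spanned 1.15-fold (9533 to 10928) and brd7.L, for a bromodomain subunit of the PBAF form, 1.09-fold (2238 to 2444). The accessory subunit gene smarce1.L had the largest cap minus vegetal difference of these members, with 1886 in the cap, 1819 dorsally, 1558 ventrally and 1019 vegetally (1.85-fold). The scaffold genes smarcc1.L and smarcc2.L differed from each other: smarcc1.L was lowest vegetally (314, 339, 300 and 201 in the same order), whereas smarcc2.L was highest dorsally (936, 1527, 984 and 1179). The ATPase gene smarca2.L spanned 1.28-fold. The family's median was 0.02 after quantile normalization, 0.18 with the arrays scaled to the hybridisation controls and 0.29 with median centring. Depending on the scaling, 4 to 7 of its 8 probe sets lay on the cap side. The smarce1.L gene passed 2-fold (1.10 on the log2 scale) after median centring of the arrays. Further SWI/SNF subunits under other names are in the second list, described below. None of their 5 compared probe sets passed 2-fold between cap and vegetal explant as deposited. The pbrm1.L gene came closest, with 572 in the cap and 287 vegetally (1.99-fold).

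The ISWI ATPase gene smarca5.S was likewise even, with 1592, 1489, 1382 and 1539, a span of 1.15-fold. The related gene smarcal1.L, whose product reanneals DNA at stalled replication forks, was 278 in the cap, 185 dorsally, 199 ventrally and 460.3 vegetally. Its vegetal signal was 1.65-fold above the cap and 2.48-fold above the dorsal marginal zone. A second smarcal1.L probe set was at the floor on all 4 arrays.

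**Figure D3:**
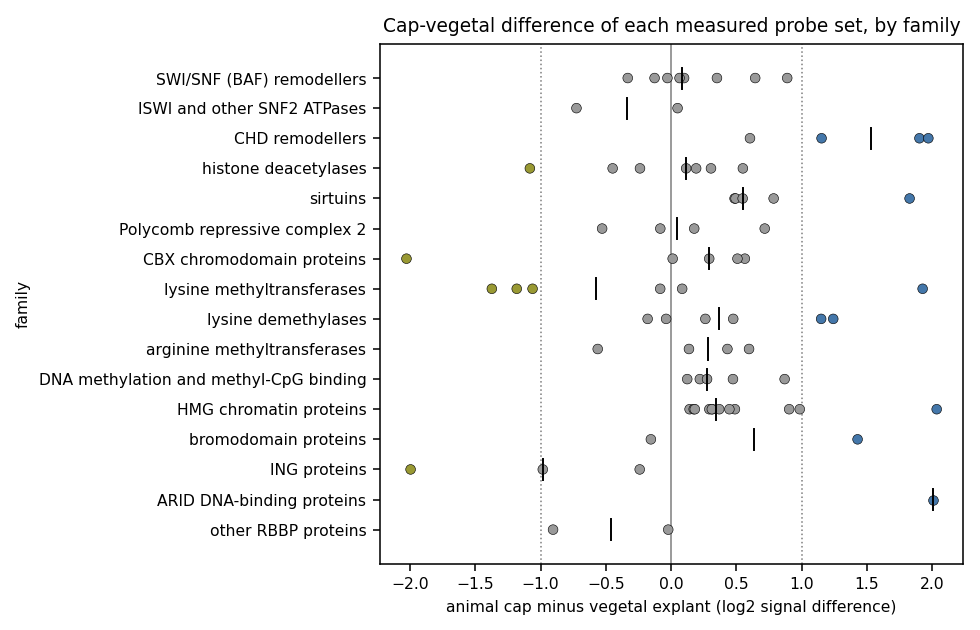
Animal cap minus vegetal explant difference (log2 signal) of each of the 76 compared probe sets, by family, 1 point per probe set. The black bar is the family's median, the dotted lines mark 2-fold, blue points are 2-fold or more higher in the cap and olive points 2-fold or more higher vegetally. All 12 HMG, all 5 sirtuin and all 4 CHD points lie to the right of 0, and the 3 ING points to the left. Of all 76 points 69.7% lie to the right of 0, against 49.3% of all probe sets of the array that were compared.

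The high-mobility-group proteins bend or bind DNA and nucleosomes without an enzymatic activity of their own. All 12 HMG probe sets, for 8 genes, were higher in the cap than vegetally as deposited (49.3% of all probe sets were) and after quantile normalization, most by little. Their median difference was 0.34 as deposited. Most of them are bright, and the median of all probe sets in the brightest tertile was 0.10. The AT-hook gene hmga2.L stood out with 736 in the cap, 466 dorsally, 367 ventrally and 180 vegetally. Its cap signal was 4.10-fold above the vegetal one and also reached the 2-fold size above the ventral one. The hmgb2.S probe sets disagreed in size: 2 of them were 955, 1238, 1164 and 483 and 1241, 1338, 1574 and 663 (1.98-fold and 1.87-fold higher in the cap), and the third, at 10484, 11201, 9536 and 9508, differed 1.10-fold. For hmgb2.L the differences were 1.24-fold and 1.40-fold. The hmgb3, hmgn1 and hmgn2 probe sets, with signals between 3048 and 12000.4 in every explant, differed at most 1.36-fold between cap and vegetal explant. Among these, the hmgn1.S probe set and all 3 hmgb3 probe sets have designs whose probes can match several transcripts. The same holds for the hmga2.L probe set and, below, for the brightest of setdb1.L and the bright ones of prmt1.L and prmt1.S.

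Of the readers of acetylated histones in the BET family, brd2.S and brd3.S went apart. The brd2.S signal was 965 in the cap, 1042 dorsally, 1019 ventrally and 359 vegetally, so that the vegetal explant lay 2.69-fold below the lowest of the other 3. In contrast, brd3.S was even at 5020, 5128, 5339 and 5591, a span of 1.11-fold. The arid3a.S gene encodes an ARID-domain DNA-binding protein and was 443 in the cap, 301 dorsally, 276 ventrally and 110.4 vegetally. The cap exceeded the vegetal explant 4.01-fold, and the vegetal signal lay 2.50-fold below the next lowest.

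A histone H4 lysine methyltransferase gene had the widest span among the 78 probe sets past the filter. The kmt5a.S gene, for the enzyme that places a single methyl group on histone H4 and is tied to the cell cycle, was 304 in the cap, 414 dorsally, 469 ventrally and 79.9 vegetally. The ventral marginal zone exceeded the vegetal explant 5.87-fold, and the cap exceeded it 3.80-fold. Its homeolog kmt5a.L was even, at 978, 891, 969 and 923. The kmt5b.S gene, whose product adds further methyl groups to the same residue, spanned 1.28-fold, and kmt5b.L stayed below the filter.

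The setdb1.L gene, for an enzyme that places a silencing mark on histone H3, had 4 probe sets. One was 319 in the cap, 399 dorsally, 262 ventrally and 724 vegetally, and the other that reached the filter was 66.4, 30.6, 92.2 and 172. The vegetal explant exceeded the cap 2.27-fold and 2.59-fold on them, but they ran opposite ways between the marginal zones. The first of these calls was lost with median centring of the arrays (-0.98 on the log2 scale). The 2 setdb1.L probe sets below the filter were also highest vegetally, at 123 and 141. The SET-domain gene setd4.L was 222, 226, 210 and 463, so that the vegetal signal was 2.05-fold above the highest of the other 3. The vegetal call of setd4.L was lost under the 3 other scalings, where the difference was -0.86 to -0.98 on the log2 scale. Of the 6 probe sets of methyltransferase genes that were compared, 3 were 2-fold or more higher vegetally (11.7% of all probe sets were), 2 of them for setdb1.L, and 1 in the cap (9.14% of all). Under the 3 other scalings the vegetal number was 1 or 2.

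Among the demethylases, kdm2b.L and kdm1a.S were higher in the cap. The kdm2b.L gene, for a CpG-binding protein that recruits a Polycomb complex, was 2576 in the cap, 1984 dorsally, 2009 ventrally and 1089 vegetally (2.36-fold between cap and vegetal explant). The kdm1a.S gene encodes the lysine demethylase first known as LSD, and its probe sets disagreed in size. The bright one was 2656, 2081, 2046 and 1198 (2.22-fold) and the dimmer one 404, 477, 477 and 337 (1.20-fold). The kdm3a.L and kdm3a.S genes differed 1.39-fold and 1.03-fold, on opposite sides of 0 as deposited, and kdm7a.S 1.13-fold towards the vegetal side. In all, 2 of 6 demethylase probe sets were 2-fold higher in the cap (9.14% of all probe sets were) and none vegetally (11.7% of all). As deposited, 4 of the 6 lay on the cap side, close to the 69.7% of all members that did. The number was 5 with the arrays scaled to the hybridisation controls or after quantile normalization, and 6 with median centring.

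Polycomb repressive complex 2, which places the repressive Polycomb mark on histone H3, had even levels of its catalytic subunit gene ezh2.L: 2500 in the cap, 2758 dorsally, 3046 ventrally and 2649 vegetally, a span of 1.22-fold. The subunit gene suz12 was lower vegetally, with 4323, 3990.5, 3672 and 2631 (1.64-fold between cap and vegetal explant). The copies of eed, which encodes the subunit that binds the mark, differed in pattern. The eed.L signal was 163 in the cap, 293 dorsally, 171 ventrally and 144 vegetally, highest dorsally and 2.03-fold above the vegetal explant. The eed.S signal was 447, 413, 372 and 645, highest vegetally.

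Among chromodomain readers, cbx2.L, for a subunit of Polycomb repressive complex 1, was 66.4 in the cap, 78.1 dorsally, 95.8 ventrally and 271 vegetally. The vegetal signal was 4.08-fold above the cap and 2.83-fold above the highest of the other 3. The heterochromatin protein genes of the same family lay at or above 0 on the cap side. The cbx3.L and cbx3.S genes were 9996, 10959, 8296 and 6760 and 6002, 5793, 4936 and 4222 (1.48-fold and 1.42-fold), the brighter cbx1.S probe set differed 1.22-fold, and cbx5.S 1.01-fold.

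The ING proteins, PHD-finger subunits of acetyltransferase and deacetylase complexes, had the lowest median of the families compared, -0.98 on the log2 scale over 3 probe sets. All 3 probe sets compared were higher vegetally than in the cap, as deposited and under the 3 other scalings. The ing3.L gene, for a subunit of the NuA4 acetyltransferase complex, was 50.7 in the cap, 63.5 dorsally, 55.8 ventrally and 202 vegetally, 3.19-fold above the highest of the other 3. Similarly, ing2.L, for a SIN3 deacetylase complex subunit, was 306, 297, 298 and 606 (1.98-fold above the cap), and ing5.L was 232, 312, 308 and 275 (1.18-fold). The acetyltransferase gene kat7.L, itself in complexes with ING proteins, reached the filter dorsally only, with 113 in the cap, 170.2 dorsally, 124 ventrally and 99.4 vegetally.

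The deacetylase gene hdac1 was close to even. The hdac1.L gene was 1522 in the cap, 1531 dorsally, 1699.5 ventrally and 1406 vegetally, and the hdac1.S probe sets differed 1.24-fold and 1.46-fold between cap and vegetal explant, both towards the cap. The hdac2.S gene was dim, at 69.9, 133, 64.6 and 148. Its vegetal signal exceeded the cap 2.12-fold, and the call was lost under the 3 other scalings and with a pseudocount of 16 in place of the floor (-0.84 to -0.98 on the log2 scale). Of the remaining deacetylases, hdac6.L, whose product acts on tubulin in the cytoplasm, and hdac8.L were highest vegetally at 466 and 320.5, against 394 and 235 in the cap, and hdac10.L differed 1.14-fold.

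All 5 sirtuin probe sets that were compared, for the NAD-dependent deacylases, lay on the cap side as deposited (49.3% of all probe sets did) and after quantile normalization. Their median difference was 0.55 as deposited. The mitochondrial sirtuin gene sirt4.L was 309 in the cap, 244 dorsally, 144 ventrally and 87.1 vegetally, 3.55-fold higher in the cap than vegetally and 2.14-fold higher than ventrally. The second sirt4.L probe set stayed below the filter. The nucleolar sirtuin gene sirt7.L was highest in both marginal zones (218 in the cap, 312 dorsally, 324 ventrally and 149 vegetally), and sirt3.2.L was 224, 115, 213 and 130.2. The sirt2.S and sirt5.L genes differed 1.40-fold and 1.41-fold between cap and vegetal explant.

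For DNA methylation, the maintenance methyltransferase gene dnmt1.L was 366 in the cap, 386 dorsally, 462 ventrally and 315 vegetally, and dnmt1.S was 146, 142, 182 and 79.9, with the ventral marginal zone 2.28-fold above the vegetal explant. The methyl-CpG-binding gene mbd1.L was 1223, 1299, 1092 and 669 (1.83-fold between cap and vegetal explant), and mbd1.S 625, 660.5, 498 and 574 (1.09-fold). The NuRD subunit gene mbd3.S differed 1.21-fold and 1.39-fold on the 2 probe sets that reached the filter. All 5 probe sets of this family that were compared lay on the cap side as deposited (49.3% of all probe sets did), with a median of 0.27. None passed 2-fold as deposited. With median centring 2 of 6 did, among them mbd1.L (1.08 on the log2 scale), and after quantile normalization 1 of 6. Of the arginine methyltransferases, prmt1.L and prmt1.S, bright at 15427, 14464, 13032 and 11445 and at 9489, 9291, 8760.3 and 6276, were 1.35-fold and 1.51-fold higher in the cap, and the second prmt1.L probe set 1.10-fold. The prmt5.L gene, for the enzyme of symmetric arginine methylation, was 461, 464, 499.5 and 681, highest vegetally (1.48-fold above the cap).

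Proteins named for binding the retinoblastoma protein have unlike roles. The rbbp8.L gene, for a DNA end resection factor, was 188 in the cap, 165 dorsally, 173 ventrally and 353 vegetally. Its vegetal signal was 1.87-fold above the cap and 2.14-fold above the dorsal marginal zone. The rbbp5.S gene, for a subunit of the COMPASS methyltransferase complexes, spanned 1.17-fold, and rbbp4.L stayed below the filter, at 72.5 to 100.1.

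Both homeologous copies could be compared between cap and vegetal explant for 10 genes. The L and S copies lay on the same side of 0 for 8 of the 10 as deposited, and the median size of their disagreement was 0.31 on the log2 scale. As 69.7% of all members compared lay on the cap side, many pairs would share a side without any tie between copies. The share over all L and S pairs of the array was not counted. No pair had both copies past 2-fold, and 1 pair, kmt5a, had 1 copy past it (0.08 for kmt5a.L and 1.93 for kmt5a.S). The eed pair (0.18 and -0.53) ran opposite ways. So did the kdm3a pair (0.48 and -0.04), but only as deposited. The kdm3a.S difference was 1.03-fold and lay on the cap side under the 3 other scalings. The other pairs, from cbx3 (0.56 and 0.51) to mbd1 (0.87 and 0.12), were on the cap side for both copies. An eleventh pair, dnmt1, had 0.22 for dnmt1.L and 0.87 for dnmt1.S, but dnmt1.S reached the filter ventrally only. A probe set of a copy may also capture RNA of its homeolog, which was not tested. Within genes, all 10 that had several probe sets past the filter kept the sign of the cap minus vegetal difference across them, with a median span of 0.22 on the log2 scale. The share that kept the sign was not counted over all genes of the array either.

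**Figure D4:**
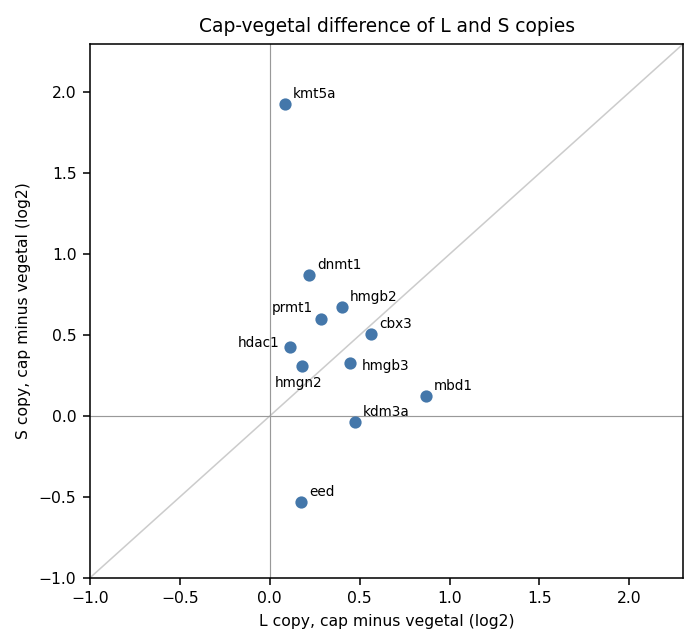
Animal cap minus vegetal explant difference (log2) of the S copy against that of the L copy, for the 11 chromatin genes with both copies above the filter in some explant (dnmt1.S ventrally only), each copy as the mean of its probe sets. The grey diagonal marks equal differences. The kmt5a point, at 0.08 and 1.93, lies farthest from it.

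Between the dorsal and the ventral marginal zone, the comparison for the dorsal-ventral axis, no chromatin probe set of 74 differed 2-fold in either direction, against 2.56% of all 8094. The median difference was 0.05 on the log2 scale, against -0.01 over all probe sets, and the robust SD was 0.23, against 0.24 over all. The largest dorsal differences were those of eed.L (293 against 171, 1.71-fold), sirt4.L (244 against 144, 1.69-fold), smarcc2.L (1527 against 984, 1.55-fold), setdb1.L (399 against 262, 1.53-fold on 1 of its probe sets) and kat7.L (170.2 against 124, 1.38-fold on 1 of its probe sets). The other kat7.L probe set, below the filter, ran the opposite way, with 54.2 dorsally and 86.6 ventrally. Ventrally, sirt3.2.L (213 against 115, 1.85-fold), sirt2.S (371 against 278, 1.33-fold), hdac8.L (253 against 192, 1.32-fold), dnmt1.S (182 against 142, 1.28-fold) and kdm7a.S (774 against 637, 1.21-fold) came first. Below the filter, 3 probe sets were past 2-fold: cbx1.S (107 dorsally, 47.8 ventrally), hdac2.S (133 and 64.6) and setdb1.L (30.6 and 92.2). Without a filter these made 2 of 96 higher dorsally and 1 ventrally, against 1.88% and 1.69% of all probe sets. The hybridisation controls were 0.21 (log2) higher on the dorsal array, and with the arrays scaled to them the members' median turned to -0.16 against -0.22 over all probe sets, with sirt3.2.L 2-fold higher ventrally.

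**Figure D5:**
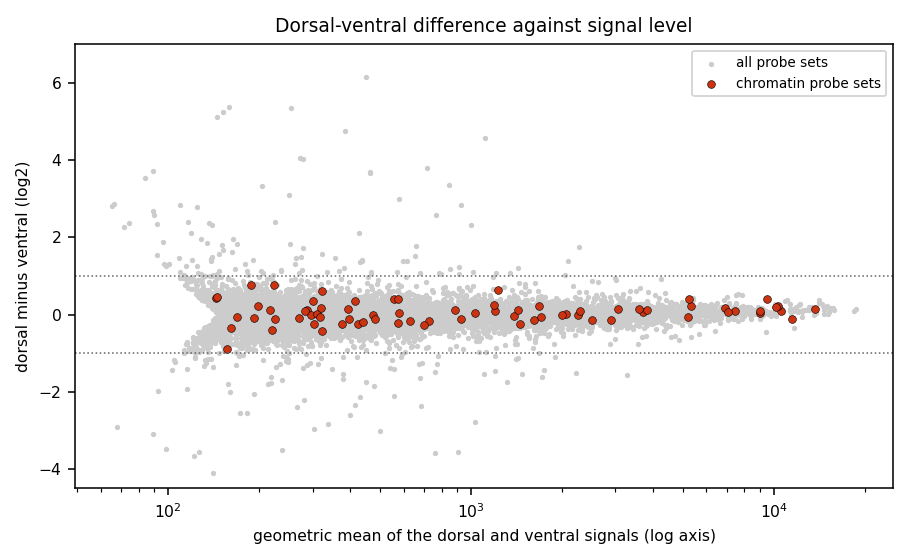
Dorsal minus ventral marginal zone difference (log2 signal) against the geometric mean of both signals (log axis), with all probe sets that reached the filter in grey and the 74 chromatin probe sets in red. The dotted lines mark 2-fold. The red points lie between -0.89 and 0.78.

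No chromatin probe set of 78 lay 2-fold above both poles in both marginal zones (0.384% of all 8851 did) or 2-fold below them (0.0226%), which makes 0.407% of all in either direction. None stood 2-fold above the other 3 explants in the cap (0.723% of all), dorsally (0.316%) or ventrally (0.181%). None was 2-fold below them in the cap (2.17%, and 2.89% in either direction) or ventrally (0.102%). In the vegetal explant, 3 of 78 were 2-fold above the other 3 (cbx2.L, ing3.L and setd4.L, 3.85% against 6.01% of all) and 6 were 2-fold below them (arid3a.S, brd2.S, chd7.L on 2 probe sets, hmga2.L and kmt5a.S, 7.69% against 5.34%). One probe set, the dim one of setdb1.L, was 2-fold below the other 3 dorsally (0.192% of all). This probe set and those of cbx2.L and ing3.L reached the filter vegetally only. Of the remaining pairs of explants, the cap and the dorsal marginal zone had 0 of 73 probe sets past 2-fold (5.86% of all, 2.25% higher in the cap and 3.61% dorsally). The cap and the ventral marginal zone had 2 of 73, hmga2.L and sirt4.L, both higher in the cap (2.74%, against 1.44% of all in that direction, 3.24% in the other and 4.68% in either). The vegetal explant differed 2-fold from the dorsal marginal zone in 19 of 76 (25%, against 17.7%), of which 12 were higher dorsally (7.89% of all) and 7 vegetally (9.83% of all). It differed from the ventral marginal zone in 18 of 76 (23.7%, against 17.1%), of which 10 were higher ventrally (7.86% of all) and 8 vegetally (9.27% of all). These comparisons share arrays, so their counts are not independent of each other.

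The 18 probe sets that never reached the filter had signals of at most 141, and 13 of them were above the floor on all arrays. The 7 genes without any probe set past the filter were hdac9.S, ing1.S, kdm6a.S, kmt5b.L, mbd2.S, rbbp4.L and setd6.L. All 3 probe sets of mbd2.S and one each of smarcal1.L and smarcc2.L were at the floor on 3 or 4 arrays. No direction is given for them.

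Chromatin genes under other names formed a second list, of subunits, chaperones, histone variants and enzymes outside the symbol families. Of its 154 symbols, 77 were on the array with 115 probe sets, and 88 probe sets entered the cap against vegetal comparison. There 9 were 2-fold or more higher in the cap and 4 vegetally (10.2% and 4.55%, against 9.14% and 11.7% of all probe sets), so that the cap share was near the background, and the median was 0.11. The 9 included every uhrf1.S probe set (1.68, 1.34 and 1.55 on the log2 scale), so they stood for fewer genes than probe sets. The largest cap differences were those of uhrf1.S (3869 in the cap and 1208 vegetally, 1.68 on the log2 scale), which encodes the cofactor of DNMT1 at replicated DNA, zbtb33.S (1084 and 344, 3.15-fold on its brightest probe set, but 282 and 255, 1.10-fold, on another), for the methyl-CpG-binding repressor Kaiso, and suv39h2.L (1557 and 514, 3.03-fold), for a heterochromatin methyltransferase. A further zbtb33.S probe set, below the filter, ran the other way, with 38.4 in the cap and 78.0 vegetally. The largest vegetal differences were those of npm2.L (1438 and 3239, 2.25-fold), for the egg's histone chaperone nucleoplasmin, and of the Polycomb repressive complex 1 genes bmi1.S (192 and 422, 2.20-fold) and pcgf1.L (112 and 241, 2.16-fold). None of 86 probe sets of this list differed 2-fold between the marginal zones, where 2.56% of all probe sets did.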

How the data were processed

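The deposited file is the authors' table of linear signal intensity values for 15611 probe sets on 4 arrays. How probe signals were summarised and scaled is not given in the sources used here. The mean without the lowest and highest 2% was 500.1 on each array, and the medians of the arrays lay within 0.21 (log2) of each other. As this is less than the 0.3 set as limit, the values were used unscaled. Per the labels' protocols, the Ovation system was used to amplify and label 100 ng of RNA. The 120 control probe sets were left out. Symbols came from the platform annotation (9304 probe sets with 1 symbol, 195 with several, 5992 with none or not listed). The identifiers of 95 of the 96 members matched the RefSeq table of Xenopus_laevis_v10.1, with no symbol changed, and suz12 did not match. Signals were floored, put on the log2 scale and counted in Python 3.11.15 with pandas 2.3.3, with functions tested on simulated data. The number of arrays limits the precision. Members and lists were chosen with earlier results of these data known. All members are accounted for. Those past 2-fold in any pair, up to 6 genes per family, the brightest gene of each family, the 5 largest dorsal-ventral differences each way, the 3 largest each way of the second list and the genes enriched or depleted in 1 explant are named by rule. Further members, chosen after their values were seen, complete their families. Alternatives changed the scaling between arrays, the floor, the filter, the probe set designs and the unit of counting. Coordinates and sequences were not used here.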

Additional observations from a re-analysis of the deposited data

How the results depend on the processing

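Each choice was changed alone. Between the marginal zones, the numbers of members 2-fold higher dorsally and ventrally were 0 and 0 as reported. They were 2 and 1 of 96 without a filter, because dimmer probe sets then entered (1.88% and 1.69% of all probe sets). With the arrays scaled to the hybridisation controls they were 0 and 1 of 75 (0.894% and 2.24% of all), and the median was -0.16 in place of 0.05. Between cap and vegetal explant, the number higher vegetally, 6 as reported, was 3 with each array centred on its median and 3 with a filter at the 60th percentile. The median of 0.27 was 0.49 with each array centred on its median and 0.37 with the arrays scaled to the hybridisation controls. The median of the marginal zones minus the poles, 0.14 as reported, was 0.26 with that scaling. The single probe set 2-fold below the other 3 explants in the dorsal marginal zone was lost (0) with a pseudocount of 16, with the higher filter and with genes in place of probe sets. The other 152 values of counts and medians under the alternatives stayed within 1.5 times the reported count or 0.1 of the reported median. Among single probe sets 12 values lost the 2-fold size, 16 gained it and 1500 did neither, and none past 2-fold changed sign. These values were taken without the filter, so changes of the filter and of the probe set designs could not alter them. A lower floor could alter only floored signals. Median centring and control scaling shifted differences by at most 0.21 (log2), too little to turn a 2-fold difference. The 1500 are therefore no measure of stability. No paired analysis was possible because each explant has 1 array, and for the same reason no replicate could be left out.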

Other observations

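These genes were chosen after their values were seen. Of the second list, all 3 uhrf1.S probe sets lay below the other explants vegetally, at 1208, 522 and 183 against 3869, 1321 and 536 in the cap. The egg linker histone gene h1-8.S was 7020.5 vegetally and 3641 in the cap, with 3189 dorsally and 3322 ventrally (1.93-fold between vegetal explant and cap). A probe set of the histone chaperone gene nasp.L was 4706 vegetally and 2442 in the cap (1.93-fold), and another 3803 and 2568 (1.48-fold). The brightest of the 3 nasp.S probe sets was 7305 vegetally and 5473 in the cap (1.33-fold). The other 2 were slightly higher in the cap (1.09-fold each). The copy npm2.S was 2580 vegetally and 1767 in the cap (1.46-fold). These genes do not stand for their groups. The median cap minus vegetal difference (log2) was 0.03 over 30 histone chaperone probe sets and 0.20 over 6 of linker and variant histones. Other members ran towards the cap, such as asf1b.L (1373 in the cap and 723 vegetally) and h3-3b.L (9901 and 6171).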
